A study of Mus musculus with 4 samples.

Results

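Gene deserts are long stretches of a chromosome without a protein-coding gene. The regions described here lie in such deserts: they are the entries of a genome-wide list of methylation regions on chromosomes 1 to 19 whose nearest protein-coding gene body is 200 kb or more away. There were 55026 of them among 474611 listed regions on these chromosomes (11.6%) and 484555 in the whole list. They came from 709 deserts, 704 of them bounded by a coding gene on each side and 5 at a chromosome end, and the regions inside coding genes (228624) served as the comparison.

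The levels come from whole-genome bisulfite sequencing of sorted hair matrix keratinocytes, dividing cells of the follicle bulb that build the hair, taken from mice at postnatal day 4.5. The design allows for native or formaldehyde-fixed cells and does not say which library had which. The 2 genotypes, WT and Tet2/Tet3 DKO with Krt14-Cre, had 2 libraries each. In the DKO both dioxygenase genes were deleted by a Cre recombinase driven by the promoter of Krt14, a keratin of basal epithelium, so cells that never expressed Krt14 would keep them. The labels give neither the sex of the mice nor whether libraries came from separate animals, and expression of cell type markers was not measured, so the sort was not checked here. Each region has only a mean level per genotype, with no value per library and unknown depth, so differences come without a replicate check and without a test. The 2 group columns carry no genotype, and WT was taken as the first because the table's title names it first, so with the columns swapped each gain below would be a loss.

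TET enzymes oxidise 5-methylcytosine, which can lead to its removal, and they are known to act at enhancers, many of which sit far from the gene they serve. Some deserts hold clusters of such distant enhancers around genes of development, as the deserts beside Sox9, Shh and Bmp4 do. Other deserts are poor in CpG, replicate late and lie at the edge of the nucleus. Bisulfite conversion does not tell 5-methylcytosine from 5-hydroxymethylcytosine, and a level is the sum of both.

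The desert regions with the clearest sequence context are those that overlap the stretch around the start of a non-coding RNA. Of 1023 promoter windows (250 bases before to 50 after a start, RefSeq, GRCm38.p6) that lay 200 kb or more from a coding gene, 177 were overlapped by a listed region, 62 of them, from 55 genes, by a region at least 20 percentage points higher in DKO and 2 by a region at least 10 points lower. Over all desert regions 13.0% were that much higher and 5.72% that much lower. An overlap of 1 base was enough, as at Gm52719, so not every such region covers a start. A long region overlaps a window more readily than a short one, and the part of region size in these counts was not tested. The first 5 windows below are those with the largest gains among windows that lie whole inside the region. The sixth, of Gm32810, lies partly inside a region that lost methylation. Each is written 5′ to 3′ on the strand of its gene, with the CpG sites, the bases that are methylated, in capitals.
Gm41230, chr14:99521587-99521886, plus strand: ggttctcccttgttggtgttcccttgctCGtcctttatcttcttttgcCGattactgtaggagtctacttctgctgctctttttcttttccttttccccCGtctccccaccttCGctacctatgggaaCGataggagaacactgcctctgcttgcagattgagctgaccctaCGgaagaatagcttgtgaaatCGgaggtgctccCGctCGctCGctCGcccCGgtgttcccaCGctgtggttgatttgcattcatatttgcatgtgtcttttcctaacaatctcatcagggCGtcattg
Gm34004, chr9:61081643-61081942, plus strand: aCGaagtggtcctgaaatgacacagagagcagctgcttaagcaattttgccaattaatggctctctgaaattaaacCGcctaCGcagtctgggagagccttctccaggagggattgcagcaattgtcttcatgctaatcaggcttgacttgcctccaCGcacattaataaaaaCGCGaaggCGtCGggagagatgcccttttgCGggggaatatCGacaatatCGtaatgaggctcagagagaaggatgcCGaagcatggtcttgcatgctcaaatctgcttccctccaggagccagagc
Gm35909, chr14:105517846-105518145, plus strand: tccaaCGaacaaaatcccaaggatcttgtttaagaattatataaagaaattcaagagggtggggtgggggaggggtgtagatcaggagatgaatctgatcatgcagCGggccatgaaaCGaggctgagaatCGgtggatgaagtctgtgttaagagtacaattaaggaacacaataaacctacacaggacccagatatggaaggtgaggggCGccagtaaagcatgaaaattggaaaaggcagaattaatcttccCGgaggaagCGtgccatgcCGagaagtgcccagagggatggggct
Gm52028, chr13:47563007-47563306, plus strand: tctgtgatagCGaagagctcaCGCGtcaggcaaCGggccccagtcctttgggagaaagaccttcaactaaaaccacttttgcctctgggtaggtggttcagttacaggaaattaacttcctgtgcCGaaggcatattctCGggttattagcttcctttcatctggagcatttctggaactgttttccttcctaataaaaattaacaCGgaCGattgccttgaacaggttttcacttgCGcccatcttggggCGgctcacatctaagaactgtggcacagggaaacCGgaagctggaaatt
Gm33045, chr13:110627722-110628021, plus strand: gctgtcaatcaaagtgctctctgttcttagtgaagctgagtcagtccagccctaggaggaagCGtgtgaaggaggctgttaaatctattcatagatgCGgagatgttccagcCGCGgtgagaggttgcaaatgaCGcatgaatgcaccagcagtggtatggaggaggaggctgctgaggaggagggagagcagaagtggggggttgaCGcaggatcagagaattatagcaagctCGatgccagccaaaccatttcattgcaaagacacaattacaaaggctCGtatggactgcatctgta
Gm32810, chr1:112416869-112417168, minus strand: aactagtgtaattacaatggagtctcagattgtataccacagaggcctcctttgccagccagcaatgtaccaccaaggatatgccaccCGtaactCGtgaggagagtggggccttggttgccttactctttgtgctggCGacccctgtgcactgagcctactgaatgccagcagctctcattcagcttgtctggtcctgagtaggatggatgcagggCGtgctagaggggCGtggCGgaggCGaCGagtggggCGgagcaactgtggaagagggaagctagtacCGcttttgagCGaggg

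These windows hold 14, 12, 8, 11, 8 and 11 CpG sites in the order printed, against a median of 2 in desert windows (interquartile range 1 to 4) and 7 in all 31396 windows on chromosomes 1 to 19 (3 to 21). The levels given next are those of the whole region over each window. The region at Gm41230, between the gene of the epithelial factor Klf5 and Klf12, went from 24.3% in WT to 85.3% in DKO by the authors' deposited table. At Gm34004, in the desert between Uaca and the co-repressor gene Tle3, the authors' deposited table gives 27.5% and 78.1%. Gm35909 lies between Ndfip2 and Spry2, an inhibitor of receptor tyrosine kinase signalling, and nearer to Ndfip2. Its region was at 24.4% and 69.4% by the authors' deposited table. For Gm52028, in the desert of Id4, an inhibitor of basic helix-loop-helix factors, the levels were 28.5% and 73.2% in the authors' deposited table. Gm33045, near the kinase gene Plk2, was at 23.5% and 67.2% per the authors' deposited table. All 5 regions were at 28.5% or less in WT and at 67.2% or more in DKO. The region at Gm32810, in a desert between Dsel and Cntnap5a, was at 48.5% in WT and 38.3% in DKO by the authors' deposited table. The AP-1 motif TGANTCA, which reads the same on both strands, occurred in 8 of the 62 windows that gained (12.9%), in 10.8% of all desert windows and in 7.84% of all windows. A match only says that these letters are present.

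Over all desert regions the median level was 78.8% in WT (interquartile range 69.6 to 84.0) and 75.9% in DKO (69.3 to 82.0). Inside genes it was 78.0% in WT (53.5 to 86.4) and 81.1% in DKO (71.9 to 87.3). The WT medians thus lay within 1 point of each other, while the DKO medians lay on opposite sides of them. The median difference, DKO minus WT, was -3.54 points in deserts (interquartile range -6.38 to 0.845) and 0.637 points inside genes (-2.34 to 21.0). The DKO level was the lower of the 2 in 39488 desert regions (71.8%) and in 44.4% of the regions inside genes. These shares depend on which small differences are listed, as described below. The authors' own spread estimate had a median of 3.73 points in deserts and 3.62 inside genes, so the typical desert difference was about as large as that estimate.

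**Figure D1:**
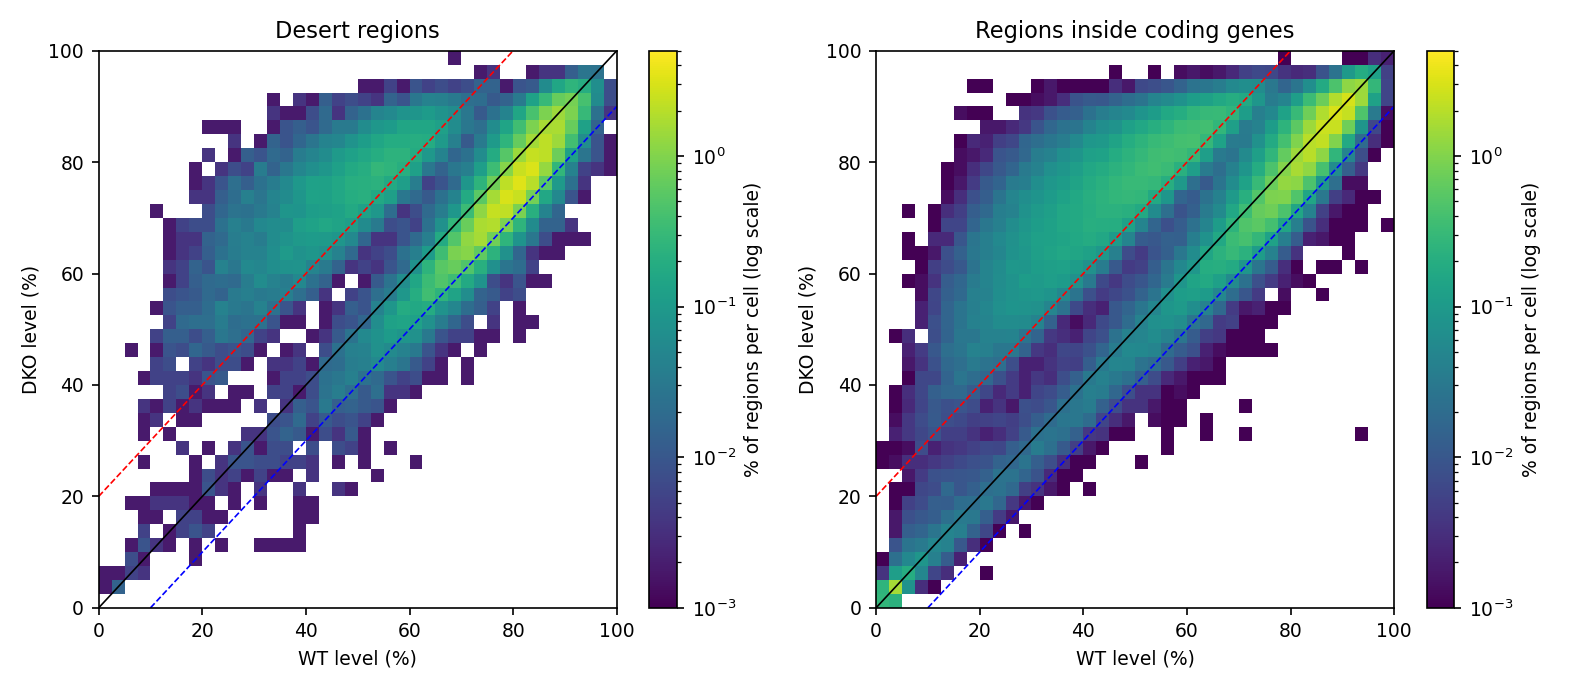
Share of regions (colour, log scale) by WT level (x axis, %) and DKO level (y axis, %) for desert regions (left) and regions inside coding genes (right). The black line marks equal levels, the red dashed line 20 points higher and the blue dashed line 10 points lower in DKO. In deserts the main body of regions lies just under the line of equal levels (median difference -3.54 points), and a cloud above the red line holds the 7136 regions that gained.

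Large gains made up a smaller share of desert regions than of regions inside genes, and losses a larger share. A region is said here to gain when its DKO level was at least 20 points above the WT level, and to lose when it was at least 10 points below. Of the desert regions 7136 gained (13.0%, 95% Wilson interval 12.7 to 13.3, which covers the counting of regions alone) and 3150 lost (5.72%, 5.53 to 5.92). Inside genes 60174 gained (26.3%) and 2356 lost (1.03%). The background over chromosomes 1 to 19 was 23.3% gaining and 2.11% losing, and for all listed regions it was 22.9% and 2.54%. The share that gained in deserts lay below this background and the share that lost lay above it. Most desert regions, 78.8%, differed by less than 10 points, and among those that differed by 10 points or more the median difference was 22.9 points, with the DKO higher. With distance measured to genes of every type, which leaves 5377 regions, 5.84% gained and 9.26% lost.

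The gains that did occur in deserts resembled those inside genes in level and were shorter. Desert gains had a median level of 46.9% in WT and 76.3% in DKO, against 46.1% and 77.1% inside genes. Their median length was 286 bp with 8 cytosine positions, against 355 bp and 12 positions. A gain of 40 points or more was reached by 579 of 55026 desert regions and 6816 of 228624 regions inside genes. Gains of 30 points or more made up 4.85% of desert regions and 11.3% of those inside genes. Desert losses had medians of 77.0% in WT and 64.8% in DKO and were short, at 59.0 bp and 3 positions. Losses of 20 points or more were few, with 88 in deserts (0.160%) and 61 inside genes (0.0267%).

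The WT level of a region went with how often it gained. Of the 265 desert regions under 20% in WT, 71.3% gained, against 22.1% of 10937 such regions inside genes, whose WT median was lower (4.55% against 15.8%). Among desert regions at 20% to 40% in WT, 88.6% gained, against 87.6% inside genes at the same WT level. At 40% to 60% the shares were 68.1% in deserts and 80.5% inside genes, and at 60% to 80% they were 3.21% and 15.4%. Deserts also held fewer listed regions of low or intermediate WT level, since 15.9% of them were under 60%, against 30.8% inside genes. Losses differed at the same WT levels too. At 60% to 80% in WT, 7.99% of desert regions and 2.26% of regions inside genes lost, and at 80% and above 4.73% and 0.828% did.

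Desert regions were small, and size went with both shares. Regions of 1 to 4 cytosine positions made up 52.7% of desert regions and 29.2% of those inside genes. In that smallest class 8.49% of desert regions gained and 7.76% lost, against 21.3% and 2.00% inside genes. In regions of 20 positions or more the order of gains turned, with 33.5% of 4457 desert regions gaining against 30.6% inside genes, while 0.920% and 0.343% lost. With regions of at least 10 positions only, 24.3% of desert regions and 30.1% of those inside genes gained, and 1.87% and 0.453% lost. Weighted by positions, the shares that gained were 20.9% and 22.9%.

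Measured against all cytosine positions in the authors' index, gains were sparser and losses denser in deserts. The deserts spanned 458 Mb with 8.875 positions per kb, and genes 983 Mb with 17.9 positions per kb. Gained regions held 2.09% of the positions in deserts and 5.15% of those inside genes. Lost regions held 0.326% and 0.0988%. Per Mb there were 15.6 gains and 6.88 losses in deserts, against 61.2 gains and 2.40 losses inside genes.

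Which small differences are listed also moved with distance. The authors' deposited table lists no region whose extreme statistic lies between -4.02 and 1.53, in deserts or inside genes. With a negative statistic, the smallest listed difference was 10.3 points in deserts and 10.9 points inside genes, DKO higher. Smaller differences with DKO higher were listed only with a positive statistic, while small ones with DKO lower were listed. The share of regions lower in DKO and the median difference rest on the regions that this leaves in the list. The statistic per position, which is positive where WT is higher, was above the WT minus DKO difference divided by the spread estimate, by a median of 0.903 spreads in deserts, 1.75 inside genes and 0.331 at 1000 kb or more. Among regions with a positive statistic the median difference was -4.42 points in deserts and -1.01 points inside genes, and among those with a negative statistic it was 26.3 and 27.7 points. The part of this offset in the median difference of deserts was not tested.

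Both shares changed step by step with distance from coding genes. The share that gained fell from 26.3% inside genes to 20.1% at 100 to 200 kb, 17.4% at 200 to 300 kb, 14.1% at 300 to 500 kb, 10.4% at 500 to 750 kb, 6.35% at 750 to 1000 kb and 3.77% at 1000 kb or more. The share that lost went from 1.03% inside genes to 3.09% at 100 to 200 kb, 3.79% at 200 to 300 kb, 4.38% at 300 to 500 kb, 6.67% at 500 to 750 kb, 9.29% at 750 to 1000 kb and 12.2% at 1000 kb or more. From 750 kb on, losses of 10 points outnumbered gains of 20 points, with 401 against 274 regions at 750 to 1000 kb and 667 against 207 beyond. Among regions of at least 10 positions the share that gained lay between 29.5% and 31.3% inside genes and up to 200 kb, with no steady fall. In deserts it then went from 27.7% at 200 to 300 kb to 25.3%, 20.6%, 13.7% and 5.95%, and the share that lost from 1.23% to 1.47%, 2.75%, 4.11% and 6.11%, so that losses outnumbered gains at 1000 kb or more only.

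**Figure D2:**
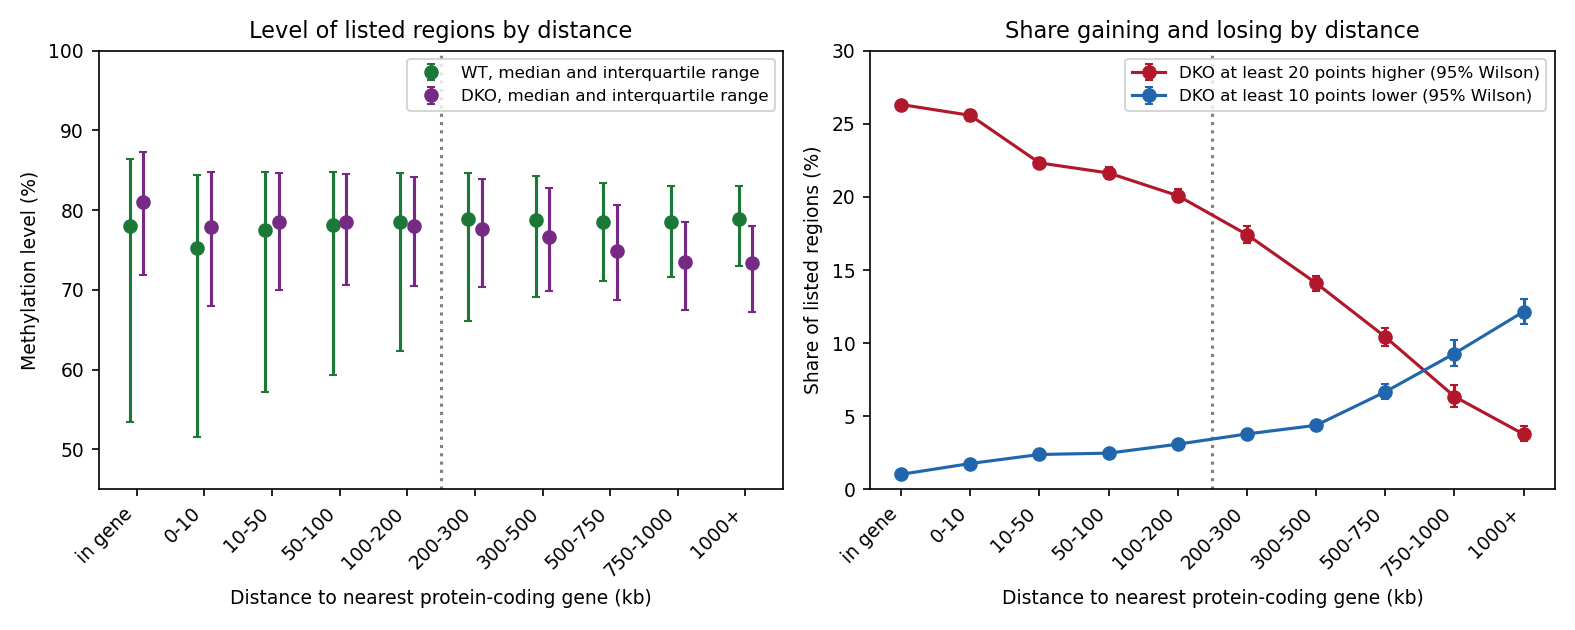
Left, median methylation level (%, with interquartile range) in WT and DKO by distance to the nearest protein-coding gene. Right, share of listed regions (%) at least 20 points higher or 10 points lower in DKO, with 95% Wilson intervals; the dotted line marks 200 kb. The WT medians stay between 75.2% and 78.9%, while the DKO median falls from 81.1% inside genes to 73.4% at 1000 kb or more.

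Within deserts the median level in WT stayed between 78.5% and 78.9%, whereas the median in DKO fell with distance. The median was 78.9% in WT and 77.6% in DKO at 200 to 300 kb, and 78.8% and 73.4% at 1000 kb or more. The rest of the WT distribution did move: its lower quartile went from 66.1% to 73.0% between these bins, and the share of regions under 60% in WT from 20.0% to 7.38%, against 53.5% and 30.8% inside genes. The median difference went from -2.02 points at 200 to 300 kb to -2.94, -4.37, -5.43 and -5.96 points in the bins beyond. At 1000 kb or more, 91.6% of regions were lower in DKO. The number of gains per Mb fell from 27.0 at 200 to 300 kb to 3.15 at 1000 kb or more, and the number of losses per Mb went from 5.87 to 10.2. Positions also thinned out, from 10.6 per kb to 7.14 per kb, and the median number of positions in a region from 6 to 3. The limit of 200 kb marks no step: 20.1% of 2451 regions at 190 to 200 kb and 19.6% of 2369 at 200 to 210 kb gained, and 3.47% and 2.95% lost.

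Long deserts differed from short ones at the same distance from a gene. At 200 to 300 kb the share that gained was 19.8% in deserts of 400 to 800 kb, 16.4% in those of 800 to 1500 kb, 12.7% in those of 1500 to 3000 kb and 11.5% in those of 3000 kb or more. The shares that lost at this distance were 2.90%, 3.77%, 5.58% and 8.06%. Within the longest deserts the share that gained still went down with distance, to 3.34% at 1000 kb or more, where 11.6% lost. Over all distances, the 366 shortest deserts had 19.6% gaining and 2.96% losing, and the 29 longest had 5.68% and 10.6%.

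**Figure D3:**
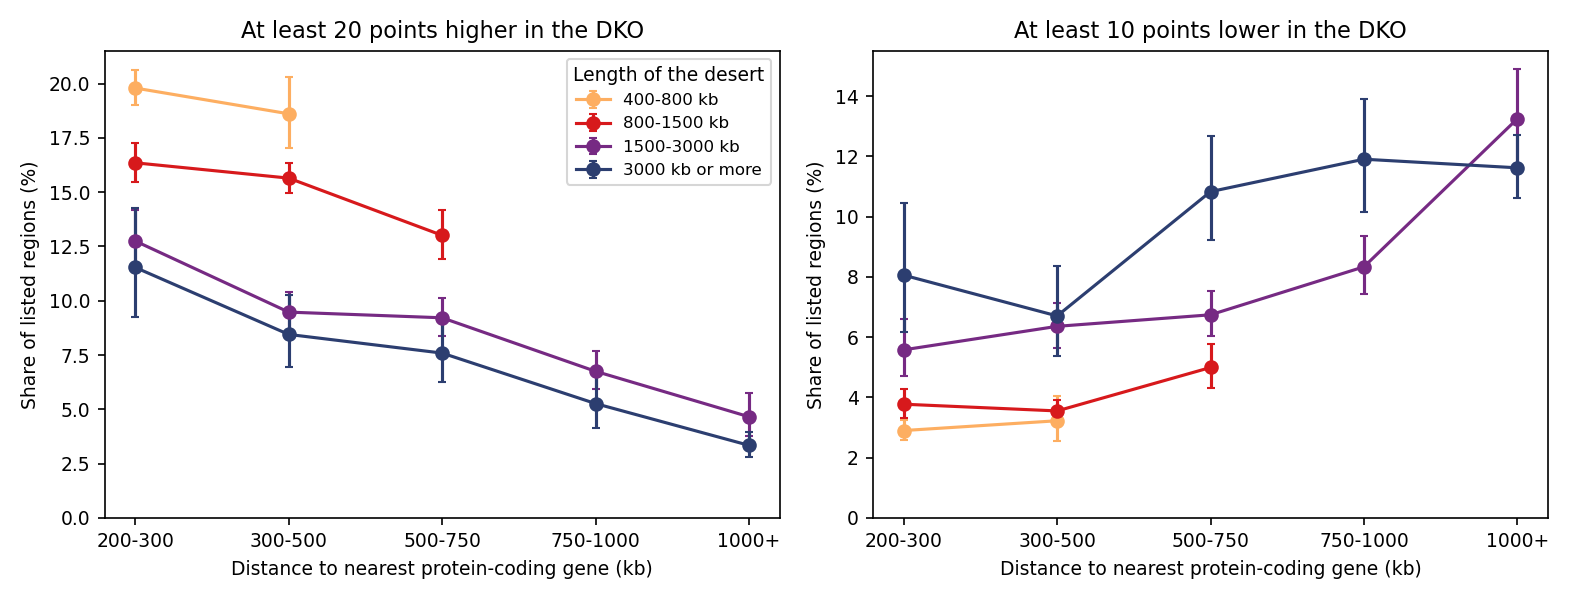
Share of desert regions (%) at least 20 points higher (left) or 10 points lower (right) in DKO by distance to the nearest protein-coding gene in kb, with 1 line per class of desert length and 95% Wilson intervals over regions. At 200 to 300 kb the lines start at 19.8% for the shortest and 11.5% for the longest deserts on the left, and at 2.90% and 8.06% on the right.

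The contrast with genes had the same direction on each of the 19 chromosomes. The share of desert regions that gained ranged from 8.48% on chromosome 6 to 21.2% on chromosome 13, with a median of 12.6%, and that of regions inside genes from 24.997% to 27.9%, so the 2 ranges did not overlap. The share that lost ranged from 2.80% on chromosome 11 to 10.7% on chromosome 5 in deserts and from 0.349% to 2.16% inside genes, again without overlap. The range over chromosomes was wider in deserts, which hold fewer regions on each, and the median difference there lay between -5.15 points on chromosome 6 and -0.818 points on chromosome 13.

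**Figure D4:**
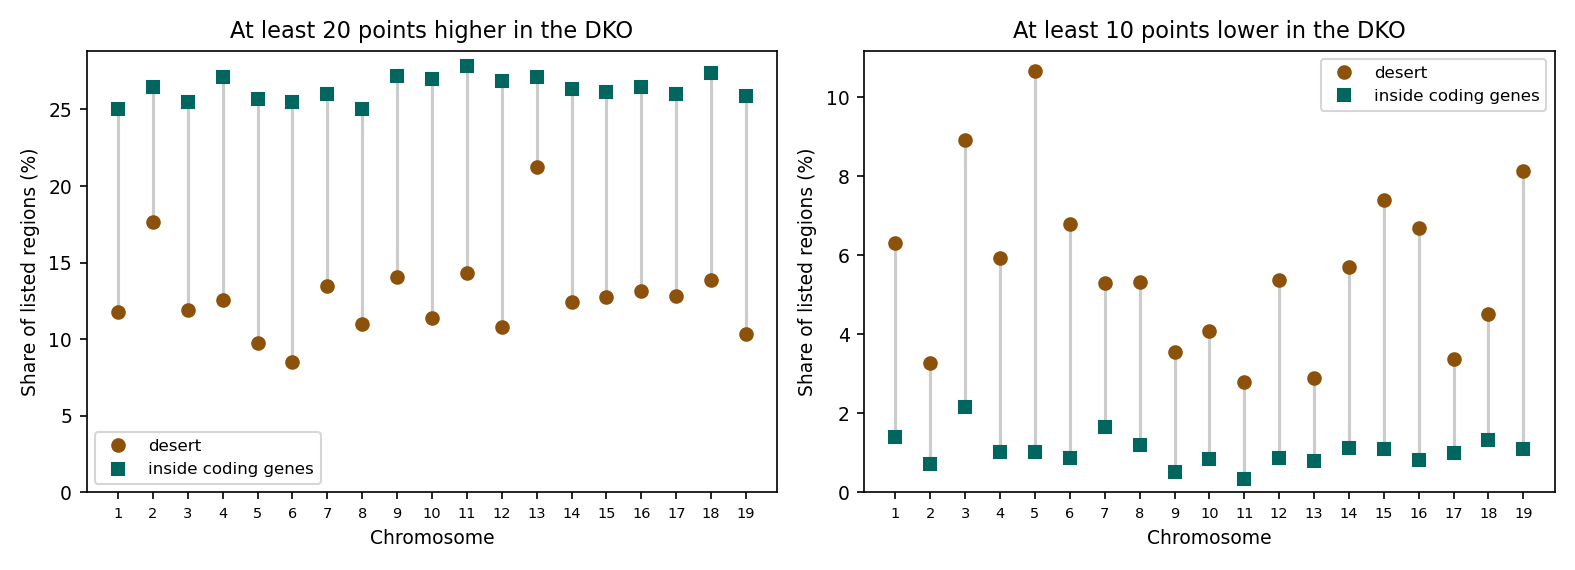
Share of listed regions (%) at least 20 points higher (left) or 10 points lower (right) in DKO on each chromosome, in deserts (circles) and inside coding genes (squares). On all 19 chromosomes the desert share lies lower on the left (8.48% to 21.2%) and higher on the right (2.80% to 10.7%).

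Single deserts were far more varied than chromosomes. Counts per desert, here and below, take in only the listed regions 200 kb or more from a coding gene. Lengths and coordinates of a desert are those of the whole stretch between its flanking genes, so the outer 200 kb on each side are not counted. Gains were found in 511 of the 709 deserts and losses in 423, both in 310 and neither in 85. Among the 361 deserts with 50 or more listed regions, the share that gained ran from 0% to 40.9% with a median of 11.3%, and the share that lost from 0% to 48.5% with a median of 3.28%. In 86 of these 361 the share that gained was above the background of 23.3%, and 93 held no loss while 26 held no gain. The median difference was below 0 in 267 of the 361.

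The most gains of any desert lay between Celf2 and Gata3. Celf2 encodes an RNA-binding protein and Gata3 a transcription factor of the inner root sheath, and the desert held 134 gains among 435 listed regions (30.8%) and 4 losses (chromosome 2, 7396342 to 9857077). Between the anion exchanger gene Slc4a3 and the Eph receptor gene Epha4 there were 104 gains in 379 regions and no loss. The desert from Slc10a2 to Efnb2, which encodes an ephrin ligand, held 90 in 451. The desert between Zfp608 and Gramd3 on chromosome 18 had 83 in 297, and that between Ttll7 and the adhesion receptor gene Adgrl2 had 76 in 313. Next to Jag1, a Notch ligand, 74 of 261 regions gained. The deserts of Zeb2, a repressor of epithelial genes, and of Bcl11a, a zinc finger factor, held 71 gains each, among 449 and 343 regions. There were 68 between Agtr1b and Tbl1xr1 and 66 next to Klf4, a factor of the epidermal barrier (27.7% of 238). These 10 deserts held 11.7% of all desert gains, and the 100 with most gains held 58.1%.

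Ranked by share among deserts with 50 or more listed regions, the order was another. Between Gadd45g, a stress and growth arrest gene, and Diras2, 38 of 93 regions gained (40.9%) and none lost, and the median level went from 68.6% to 82.2%. The median of the differences of single regions in this desert was smaller, at 2.85 points. The share was 37.3% between Adamts9 and Magi1 and 37.0% between Msx2, a homeobox factor of the hair shaft, and Drd1. It was 36.1% between Rasgef1b and Vamp9 and between Veph1 and Shox2, 35.7% next to Bmp4, a growth factor of hair differentiation, 35.4% between Eci2 and Cdyl and 34.5% next to Trps1, a zinc finger factor needed for hair growth. None of these 8 deserts held more than 1 loss. The desert on the other side of Trps1, towards Csmd3, had 8 gains (6.20%) and 7 losses (5.43%) in 129 regions. It is counted below with those of neuronal adhesion genes.

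The most losses of any desert lay on chromosome 3. This desert, between the arginine methyltransferase gene Prmt6 and the amylase gene Amy2b (110251000 to 113147655), had 146 losses among 301 regions (48.5%) and 2 gains, and its median level was 69.2% in WT and 59.0% in DKO. Between Stim2 and Pcdh7 on chromosome 5, 93 of 291 regions lost and 1 gained. On the other side of Pcdh7, towards G6pd2, 78 of 290 lost and 5 gained. The desert between the cadherin genes Cdh6 and Cdh9 held 78 losses and 33 gains among 366 regions, and that between Manea and Epha7 held 44 losses and 7 gains among 185. These 5 deserts held 439 losses, which is 13.9% of all in deserts. The longest desert of all, 4542 kb between Pcdh20 and Pcdh9, had 9 gains and 26 losses in 368 regions and a median difference of -5.96 points. The other 4 of the 5 longest, from Celf4 to Pik3c3, Olfm4 to Pcdh17, Cntnap5b to Cdh20 and Tenm3 to Aga, had shares gaining from 1.67% to 7.57% and losing from 4.13% to 11.6%. Of the 5 deserts with most listed regions, the remaining one, between Nudt12 and Efna5, had 48 gains and 9 losses in 380.

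Deserts were also grouped by their flanking genes. The 3 gene lists used were drawn up with earlier results of these data known, so their counts are a description and no evidence of their own. Of 64 factors of epithelium, hair and skin development, 35 flanked 41 deserts, and 24.7% of the 5023 regions there gained while 1.41% lost (median difference 0.570 points). Of 59 signals and receptors, 15 flanked 17 deserts, with 25.3% of 1321 regions gaining and 0.530% losing (median difference 1.18 points). Of 64 genes of neuronal adhesion and synapses, 51 flanked 68 deserts, with 5.74% of 9220 regions gaining and 10.3% losing (median difference -5.47 points). That last list includes the potassium channel genes Kcnj2 and Kcnj16, which are not adhesion genes and flank 1 desert each. It holds the Eph receptor genes Epha3, Epha5, Epha6 and Epha7 but not Epha4. The desert between Slc4a3 and Epha4, with 104 gains in 379 regions and no loss, thus counts among those of no list. The 583 deserts of no list had 12.8% gaining and 5.38% losing, against 13.0% and 5.72% over all desert regions. No desert belonged to more than 1 list.

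**Figure D5:**
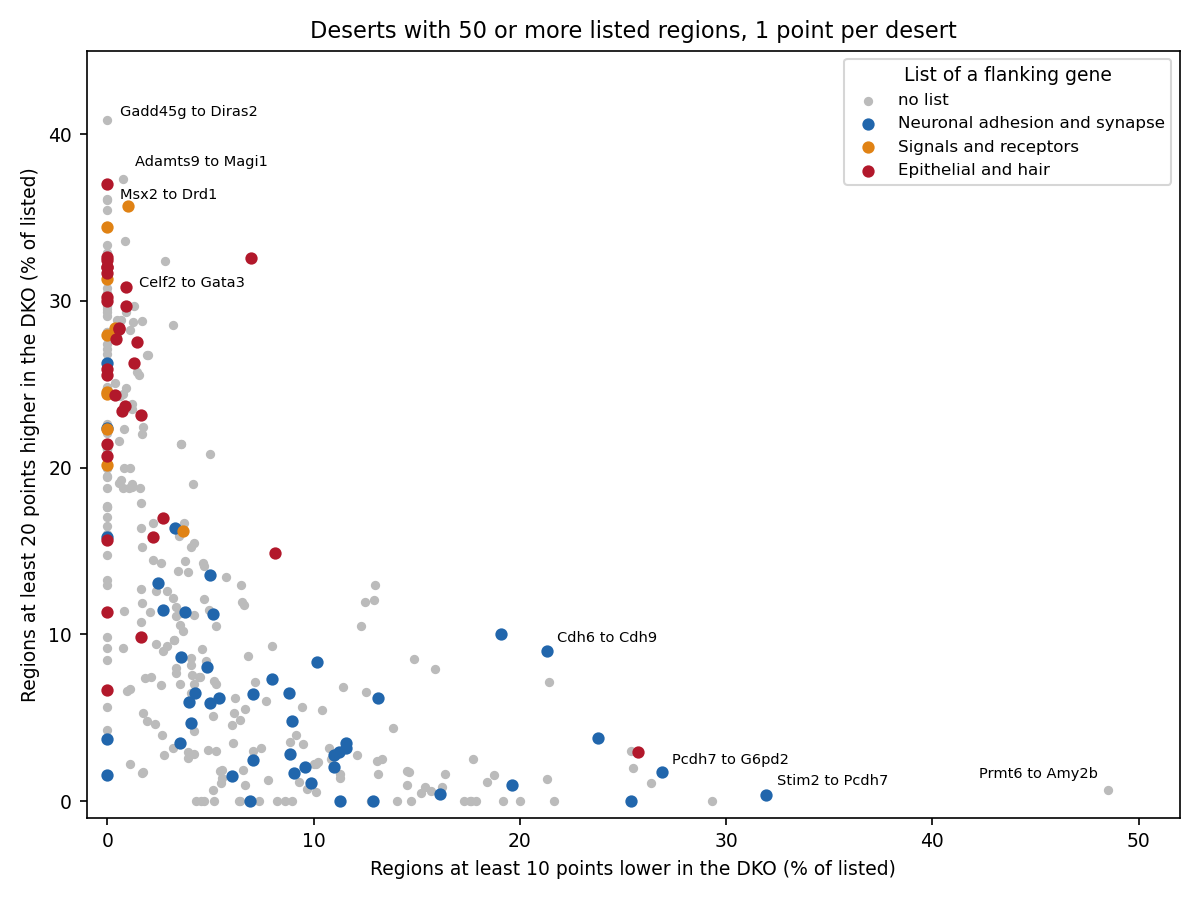
Each point is 1 of the 361 deserts with 50 or more listed regions, placed by the share of its regions at least 10 points lower (x axis, %) and at least 20 points higher (y axis, %) in DKO, and coloured by the list of a flanking gene. Most deserts of epithelial factors and of signals lie near the y axis (medians 26.1% and 26.2% gaining) while those of neuronal adhesion genes lie lower (median 4.71% gaining).

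The lists differ in desert length, with a median of 797 kb for epithelial factors, 649 kb for signals and 1412 kb for neuronal adhesion genes. The shares within classes of length are a description too, for the same lists, and the part of length in their contrast was not tested. In deserts of 800 to 1500 kb, 24.4% of regions gained for the 14 deserts of epithelial factors, 24.1% for 6 of signals and 7.34% for 21 of neuronal adhesion genes. In deserts of 1500 to 3000 kb the shares were 25.8% for 3 deserts and 7.18% for 17. In deserts of 400 to 800 kb they were 27.0% for 23 deserts of epithelial factors, 27.2% for 11 of signals and 10.7% for 15 of neuronal adhesion genes.

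Among the epithelial factors, 39 of 41 deserts held a gain and 19 held a loss, against 511 and 423 of all 709 deserts. Upstream and downstream deserts of Sox9, a factor of hair follicle stem cells, had 65 gains in 219 regions towards Gm11677 and 13 in 29 towards Slc39a11. The desert of Sox4, a factor of the same family, gained in 42 of 131 regions, and its median went from 82.3% to 87.9%. Deserts of Runx1, a factor of follicle stem cell activation, and of Bcl11b, a zinc finger factor of epithelium and T cells, had shares of 32.0% and 32.6%. On either side of Myc, the growth regulator, 64 of 263 regions and 58 of 224 gained. Next to Nfib, a factor of follicle stem cells, 49 of 162 gained and none lost. The desert between Klf5 and Klf12 held 28 gains and 6 losses among 86 regions. Gained regions held 17.1% of the positions from the first to the last of these 86 regions. Not all deserts of the list did so: the deserts on either side of Sox11, a factor of the same family as Sox4 and Sox9, had shares gaining of 11.3% and 6.67%.

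Among the signals, 16 of 17 deserts held a gain and 3 held a loss, against 511 and 423 of all 709 deserts. The desert of Shh, the morphogen of hair follicle growth, had 31 gains and no loss in 111 regions. That of Fgfr2, a growth factor receptor of epithelium, had 21 in 61 (34.4%). The deserts on either side of Bmp2, a growth factor of hair differentiation, had 22 in 109 and 14 in 57. Around Gli3, a transcription factor of the hedgehog pathway, 26 of 83 gained. The desert of Fgf20, a growth factor of the hair placode, had 1 gain in 20 regions, and that between Papss1 and Dkk2 had none in 4.

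Among the neuronal adhesion genes, 56 of 68 deserts held a gain and 58 held a loss, against 511 and 423 of all 709 deserts. The shares gaining ran from 0% to 26.3% over the 47 deserts with 50 or more regions, the highest being that between Tdrd3 and Pcdh20 with 21 of 80. No gain was listed in the 130 regions between Kcnv1 and Csmd3 or the 58 between Cntn3 and Chl1, and 33 and 4 of these lost. Cntn3 and Chl1 encode neural cell adhesion proteins of the immunoglobulin superfamily.

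The largest gains among desert regions of 10 or more positions lay at 208 to 343 kb from a coding gene, where the median over all desert regions was 382 kb. The first, between Klf5 and Klf12 (chromosome 14, 99521566 to 99522620, 208 kb from Klf5), is the one over the start of Gm41230 and rose by 61.0 points over 64 positions in the authors' deposited table, with a spread estimate of 3.45. A region between Dach1 and Mzt1 (chromosome 14, 98505243 to 98505840) was at 20.4% in WT and 81.2% in DKO by the authors' deposited table. In the desert between Rps24 and Zmiz1, a coactivator gene, the region at chromosome 14, 25137252 to 25138246, was at 25.9% and 85.1% by the authors' deposited table. The next, 343 kb from Klf4 (chromosome 4, 55874990 to 55875816), was at 19.3% and 78.0% per the authors' deposited table. Between Enc1 and Arhgef28 the authors' deposited table gives 26.3% and 84.7% (chromosome 13, 97651426 to 97652869). Near Tbl1xr1 (chromosome 3, 21832912 to 21833762) it was 22.3% and 80.03% per the authors' deposited table, with the widest spread estimate of the 8, 6.31 points. The region 216 kb from Id4 (chromosome 13, 48044672 to 48045052) went from 34.1% to 91.7% per the authors' deposited table, and the one between Uaca and Tle3 (chromosome 9, 61092556 to 61093291) from 26.4% to 83.6%. All 8 were at 34.1% or less in WT and reached at least 78.0% in DKO.

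The widest desert gains were measured in kilobases. The region between Tle3 and Rplp1 (chromosome 9, 61619548 to 61623578) measured 4031 bp with 95 positions and went from 26.9% to 72.8% per the authors' deposited table. Between Pdzrn3 and Cntn3 a region of 2882 bp (chromosome 6, 101835092 to 101837973) went from 29.1% to 69.0% per the authors' deposited table. In the desert of Myc a region of 2836 bp, 430 kb from the gene (chromosome 15, 62420391 to 62423226), was at 35.3% and 74.4% by the authors' deposited table. Between Prdm1 and Prep the authors' deposited table gives 56.1% and 86.4% for a region of 2666 bp (chromosome 10, 44799034 to 44801699).

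The farthest gains lay more than 2 Mb from any coding gene. Of these 4, 3 are close neighbours between Pcdh20 and Pcdh9, 2230 to 2231 kb from Pcdh20. The one with most positions (chromosome 14, 90702472 to 90703205, 24 positions) was at 59.6% in WT and 84.1% in DKO by the authors' deposited table, a difference of 24.5 points, and its neighbours differed by 27.7 points over 2 positions and 24.8 points over 4. The last, 2202 kb from Pik3c3 on chromosome 18 (28063310 to 28063387), was at 40.3% and 62.1% per the authors' deposited table.

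The largest losses of regions with 10 or more positions came from few deserts. Both largest lay between Cdh6 and Cdh9. The first (chromosome 15, 14705373 to 14705701, 1529 kb from Cdh6) was at 81.0% in WT and 50.03% in DKO by the authors' deposited table, with a spread estimate of 3.62 points. The second (chromosome 15, 14451279 to 14451851) was at 71.0% and 44.7% per the authors' deposited table. Another 3 lay between Prmt6 and Amy2b, at 50.2% and 27.0% (chromosome 3, 112607225 to 112607484), 37.5% and 15.5% (112611017 to 112611607) and 45.9% and 25.4% (111178928 to 111179685) in the authors' deposited table. The sixth, between Pcdh17 and Diaph3 (chromosome 14, 86397986 to 86398587, 67 positions), was at 78.3% and 57.3% per the authors' deposited table, with a spread estimate of 9.24 points, well above the desert median of 3.73.

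Deserts are free of coding genes but not of transcripts, and desert regions over a long non-coding RNA gene had a larger share of gains than those over no gene. A long non-coding RNA gene was overlapped by 13.1% of desert regions, of which 19.1% gained and 3.08% lost, while of the 46903 regions over no gene of any type 12.1% gained and 6.05% lost. The former were also larger, with a median of 6 positions and 211 bp against 4 positions and 137 bp, and the part of size in this difference was not tested. Of 942 such RNA genes touched by a desert region, 423 held a gain and 97 a loss, counts that rise with the number of regions a gene holds and are read only beside the 13.0% and 5.72% of all desert regions. Most gains, 40 among 112 regions, lay in 2610307P16Rik next to Sox4, where the median level was 79.9% in WT and 87.8% in DKO. A930011G23Rik held 39 among 108, Gm30382, between Adgrl2 and Adgrl4, 31 among 90, and Gm13219, between Celf2 and Gata3, 23 among 57. Another 22 lay in 5730522E02Rik, in the desert of Bcl11a, and 15 in Gm5095. None of these 6 RNA genes held a loss.

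The other two of the 8 with most gains, Mir100hg and Mir99ahg, are named for the related microRNA clusters of miR-100 and miR-99a. Mir100hg on chromosome 9 (41376526 to 41615185) had 27 gains in 84 regions, and Mir99ahg on chromosome 16 (77329328 to 77558428) had 19 in 71, with no loss in either. The hairpins of Mir100 and Mir125b-1 lie inside Mir100hg, while those of Mir99a and Mirlet7c-1 lie beyond the annotated end of Mir99ahg. Their mature sequences (RefSeq, GRCm38.p6, seed of bases 2 to 8 in capitals) are printed to show that the first pair, 1 from each chromosome, shares its seed.
mmu-miR-100-5p, chromosome 9: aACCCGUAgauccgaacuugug
mmu-miR-99a-5p, chromosome 16: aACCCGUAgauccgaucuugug
mmu-let-7c-5p, chromosome 16: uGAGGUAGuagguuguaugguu
mmu-miR-125b-5p, chromosome 9: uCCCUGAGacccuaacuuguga

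Gains lay near these hairpins but not on them. The gain nearest to Mir100 was 3026 bp away and went from 34.0% in WT to 77.2% in DKO by the authors' deposited table. For Mir99a the distance was 3202 bp, and the levels were 28.3% and 73.8% by the authors' deposited table. The same gain was the nearest to Mirlet7c-1, at 3923 bp. The hairpin of Mir125b-1 itself lay in a listed region that was low in both genotypes, at 2.62% and 4.38% in the authors' deposited table, with a gain 2400 bp away. The hairpin of Mirlet7a-2, also inside Mir100hg, lay in a listed region at 85.7% and 87.7% in the authors' deposited table. The gain nearest to Mirlet7a-2 was 822 bp away. Of 44 hairpins 200 kb or more from a coding gene, 6 were overlapped by a listed region and 1, Mir6350 on chromosome 1, by a gain, from 41.9% to 64.9% in the authors' deposited table. Over all desert regions 13.0% gained.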

How the data were processed

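The submitters' processing notes name Trim Galore, Bismark and the build GRCm38 (mm10) for the whole-genome bisulfite libraries (2 WT, 2 DKO). Which region caller, smoothing and filters the authors used is not given in the sources used here. For each region, the authors' deposited table gives a mean methylation level per group as a fraction, multiplied to percent here. It also gives a spread estimate and a statistic of the caller, treated as a score per the file headers, and the signed difference of the 2 means, also handled as a score in the deposited table. The deposited columns with another kind of number (positions, length in bp) were used as they are. No counts, p-values or values per library were analysed, so no test was run and the depth is unknown.

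Distances were taken from region edges to protein-coding gene bodies of RefSeq (GRCm38.p6, 20665 genes on chromosomes 1 to 19). Positions per span were interpolated from the authors' index of cytosine positions at listed regions, in which the strands of a CpG mostly count apart. Assembly gaps were not removed from spans. Distance and share calculations were tested on simulated data. Members and lists were chosen with earlier results of these data known. Named were the 8 largest gains and 6 largest losses of regions of at least 10 positions, the 4 farthest and 4 widest gains, the 10 deserts with most gains, the 5 each with most listed regions, most losses and greatest length, and the 8 non-coding genes with most gains. Other deserts, promoter windows and hairpins named were chosen after their values were seen. Alternatives changed the distance limit, the genes, region size, merging, weighting and thresholds. Tables were handled in Python 3.11.15 with pandas 2.3.3 on numpy 2.4.6, intervals came from scipy 1.17.1, and figures were drawn with matplotlib 3.10.9. Results on some items are not reported here.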

Additional observations from a re-analysis of the deposited data

How the results depend on the processing

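In all 10 alternatives the share of desert regions that gained stayed below that inside genes and the share that lost stayed above it. The shares gaining in deserts were 15.7% (100 kb), 7.57% (500 kb), 5.84% (all gene types), 24.3% (10 or more positions), 17.7% (200 bp or more), 20.9% (weighted by positions), 4.85% (30 points) and 61.1% (differences of 10 points or more only). The shares losing, with 500 bp merging before weighting, were 4.71%, 8.86%, 9.26%, 1.87%, 4.02%, 5.32%, 3.26%, 0.160% (20 points) and 27.0%. Inside genes the shares from all gene types on were 25.9%, 30.1%, 28.7%, 25.7% (merged), 22.9%, 11.3% and 85.2% gaining and 1.18%, 0.453%, 0.708%, 0.863%, 0.438%, 0.0267% and 3.34% losing. The gap in the share gaining, deserts minus genes, was -10.6, -18.75, -20.02, -5.81, -11.0, -12.7, -2.00, -6.44 and -24.1 points in the same order, so it was narrowest when weighted by positions. The desert WT median moved to 78.64% (500 kb), 78.4% (all gene types), 79.3% (positions), 79.0% (length), 79.0% (weighted) and 54.1% (10 points), and the DKO median to 76.7% (100 kb), 74.1%, 73.7%, 78.6%, 76.9%, 77.6% and 73.1%. The median difference was -2.66, -5.14, -5.27, -1.11, -2.60, -3.46 (merged) and -1.83 points, and turned to 22.9 points with differences of 10 points or more only, a setting that drops the many small differences. That setting and one with curated coding genes only, which moved no value beyond its interval, were chosen after seeing the data. No paired analysis was possible because the table holds group means only, and for the same reason leaving out a library was not run. Depth is unknown, so what it limits was not assessed.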

Other observations

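Deserts of the X chromosome, left out above, held 1488 listed regions. Of these, 22 gained at least 20 points (1.48%, 95% Wilson interval 0.978 to 2.23) and 404 lost at least 10 points (27.2%, 24.95 to 29.5). WT had a median level of 77.6% and DKO one of 69.6%, with a median difference of -7.88 points. Inside genes of the X chromosome 7.14% of 3387 regions gained and 14.9% lost, with a median difference of -4.76 points. The authors' spread estimate had a median of 5.08 points in X deserts, against 3.73 points in deserts of the other chromosomes, and the labels do not give the sex of the mice.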
